A study of Homo sapiens with 6 samples.

Results

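This account follows 48 genes of mitotic entry, the kinetochore and the spindle in MIA PaCa-2 cells given triptolide. The genes were chosen by name, from a list of cyclins, mitotic kinases, checkpoint proteins, kinetochore proteins, kinesins and spindle proteins, and all 48 were found among the 35716 genes of the count table. MIA PaCa-2 (Miapaca-2 in the labels) is a human line grown from a pancreatic carcinoma. Triptolide is a plant compound that blocks transcription by binding XPB, a subunit of TFIIH. The labels give 3 libraries of cells with 10 nM triptolide for 24 h and 3 libraries of cells without treatment, which the design text describes as kept for 24 h in medium with serum. The genotype of all 6 is given as WT, and no vehicle is named for the untreated cells. In the design text the word control stands for the triptolide cells, so libraries were grouped by their treatment label. Nothing in the labels tells whether replicates are separate cultures. The p-values then cover the spread of these 6 libraries alone, and that spread may be technical.

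A cell enters mitosis when cyclin B and its kinase CDK1 become active, a step held back by the kinase WEE1 and released by the CDC25 phosphatases. Chromosomes then attach to spindle microtubules through kinetochores, kinesin motors shape the spindle, and a checkpoint delays anaphase until the anaphase-promoting complex (APC/C) can be switched on by CDC20. Many of these genes are transcribed late in the cell cycle under the factors FOXM1 and B-MYB and the DREAM and MuvB complexes, and their mRNAs are low in cells that have stopped dividing. Promoters of the class often carry CCAAT boxes, which NF-Y binds, and the element called CHR.

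With triptolide, 2 of the 48 genes fell and 0 rose at an adjusted p under 0.05 (edgeR's quasi-likelihood test, adjusted over 15202 tested genes). The 2 were CCNB1, which encodes cyclin B1, and KIF20B, which encodes a kinesin needed to finish cytokinesis. Over all tested genes 5.82% fell and 10.0% rose, so the 4.17% of the 48 that fell is near the background and no member added to the rises. At an unadjusted p under 0.05, 10 members lay lower and 1 lay higher in edgeR, against 13.8% and 17.1% of all tested genes. DESeq2 called 4 lower and 1 higher, against 7.39% and 9.90% of all genes. The limma-voom fit called 3 lower and 0 higher, against 5.91% and 9.76%. The median log2 fold change of the 48 was -0.13, against -0.004 over all tested genes, a difference of -0.127. That difference was -0.0385 with a correction for GC content and length, -0.0347 without triptolide replicate 1, and -0.0323 without triptolide replicate 1 and untreated replicate 3. These were the smallest differences among the alternatives. The largest were -0.277 without triptolide replicate 2 and -0.261 with no low-count filter, and it was -0.174 without untreated replicate 1 or 3. The log2 fold change was below 0 in 32 of 48 members, or 66.7%, against 50.3% of all tested genes.

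**Figure D1:**
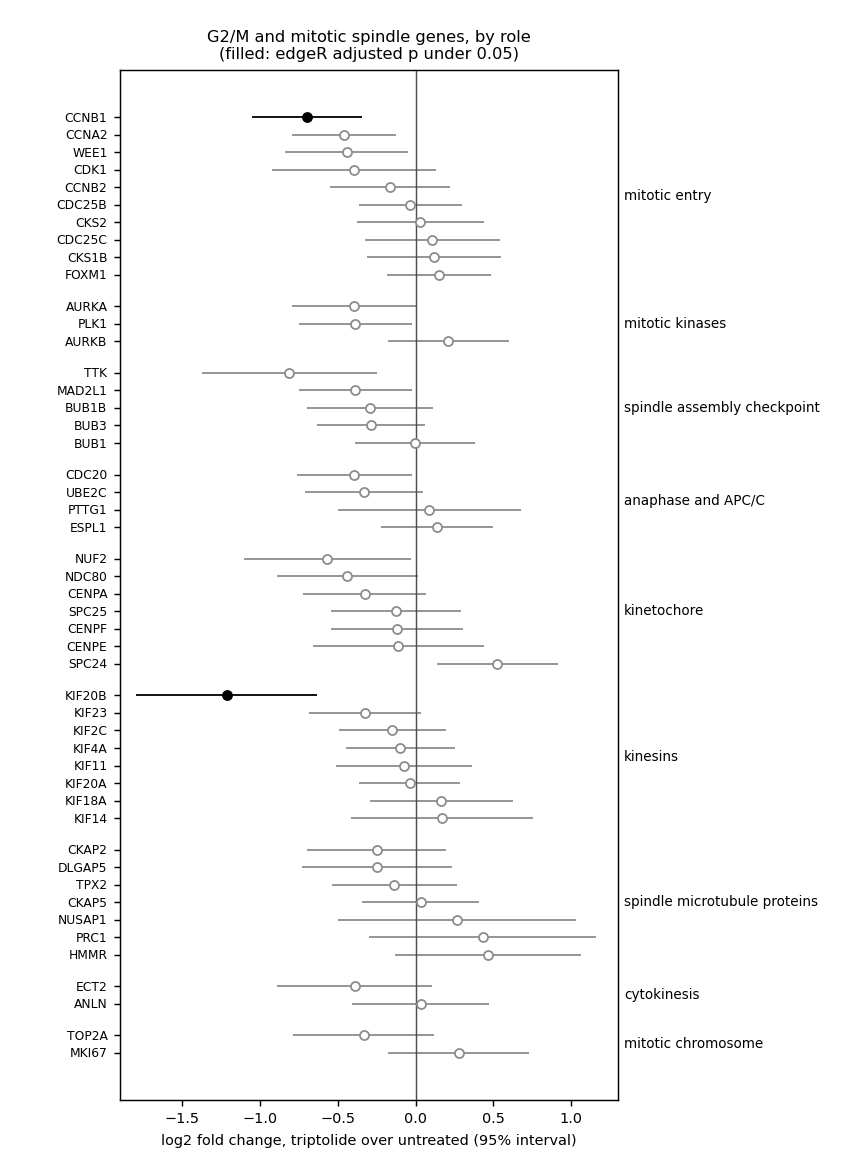
Log2 fold change of each of the 48 genes, triptolide over untreated, with its 95% interval from edgeR's quasi-likelihood fit, in 9 groups by role. Filled points passed an adjusted p of 0.05: CCNB1 at -0.70 and KIF20B at -1.22; open points did not.

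The libraries held 16302961 to 23262713 counts each, and 2 of them stood apart from the others of their group in these genes. Triptolide replicate 1 was the lowest of its group in 35 of the 48 genes, and its difference from the other triptolide libraries followed base composition. Across the 48 genes the correlation of that log2 difference with the GC content of the gene's transcripts had a Pearson r of 0.80 and a Spearman rho of 0.82, and over 15077 tested genes r was 0.76. Untreated replicate 3 was lower than the other untreated libraries in long genes and higher in short ones. Its log2 difference from them had an r of -0.74 and a rho of -0.82 with the log2 exon length over the 48 genes, and an r of -0.38 over the 15077. These correlations run across genes of the same libraries and describe those libraries. The log2 fold change itself had an r of 0.32 with GC content over the 48 genes and of 0.17 over the 15077. The part of GC content and length in the results was not tested as a cause, and the counts of calls with a correction for both, and without both libraries, are given after the account of the single genes.

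**Figure D2:**
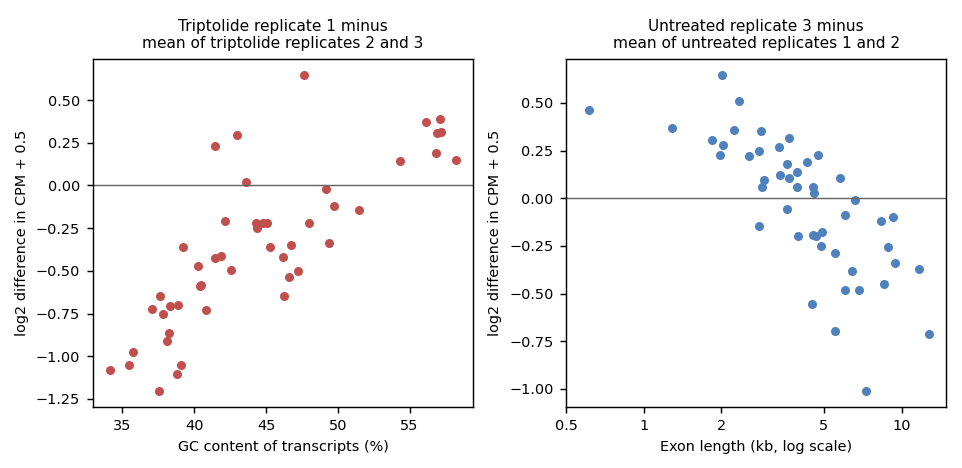
Each point is 1 of the 48 genes. Left, the log2 difference of triptolide replicate 1 from the mean of triptolide replicates 2 and 3 against GC content in percent; right, the log2 difference of untreated replicate 3 from the mean of untreated replicates 1 and 2 against exon length in kb on a log scale. The differences follow GC content on the left (r = 0.80) and length on the right (r = -0.74).

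Marker genes of other cells also differed between the groups. Of 20 listed placental trophoblast genes, 14 were tested and all 14 rose, where 10.0% of all tested genes rose and 5.82% fell. A gene near 0 without triptolide could pass the filter on low counts only through its triptolide libraries, and the reverse. The calls in these marker lists are therefore descriptions. The trophoblast list summed to 555 to 924 CPM (counts scaled to library size) in triptolide libraries and 13.6 to 15.97 CPM in untreated ones. GCM1, ERVFRD-1, HSD3B1, PAGE4, SIGLEC6 and PLAC1 were at 0 in all untreated libraries. Of 13 listed fibroblast genes 9 were tested and 5 fell, with sums of 308 to 421 CPM with triptolide and 410 to 487 CPM without, and FAP and CDH2 were at 0 in all triptolide libraries. Of 12 listed blood and vascular genes 7 were tested, and 5 rose and 1 fell, with sums of 29.6 to 45.2 CPM with triptolide and 24.0 to 29.05 CPM without, while CD68, HBG1 and HBG2 were at 0 in the untreated libraries. Of 8 listed epithelial genes 6 were tested and KRT18 fell. The keratin gene KRT8 stood at 1378 to 1873 CPM with triptolide and 1616 to 2274 CPM without, whereas the epithelial markers EPCAM and CDH1 were at most 0.06 and 0.28 CPM with triptolide and 0.17 CPM each without. Of 9 acinar and islet markers 5 were listed in the table, and together they gave at most 0.35 CPM with triptolide and 0.222 CPM without. In bulk libraries, fewer cells of a type and less RNA per cell cannot be told apart. The part of other cells in the mitotic results was not tested.

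Among the genes of mitotic entry, CCNB1 (ENSG00000134057) had 294, 370 and 316 CPM with triptolide, against 486, 518 and 584 CPM in untreated cells. The highest triptolide library lay well below the lowest untreated one. The gene fell 1.62-fold, and its log2 fold change was -0.70 ± 0.16 (SE; edgeR adjusted p = 0.0131). Its adjusted p was 0.0617 without triptolide replicate 3 and 0.0549 without untreated replicate 2. It was 0.183 with scaling on ribosomal protein genes, while a correction for GC content and length gave a log2 fold change of -0.61 with an adjusted p of 0.00161. The gene was lower in all 3 triptolide libraries.

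CCNB2 encodes cyclin B2, the close relative of cyclin B1. It had 123, 180 and 138 CPM with triptolide and 156, 154 and 184 CPM without, and the groups overlapped. Its log2 fold change was -0.16, with a 95% interval from -0.55 to 0.22 (adjusted p = 0.571 in edgeR). The ratio of CCNB1 to CCNB2 within a library does not depend on how libraries are scaled. It was 2.39, 2.06 and 2.29 with triptolide and 3.11, 3.37 and 3.17 without, a log2 difference of -0.52. The pair was chosen after the values of both genes had been seen, so the ratio is a description with no test.

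CDK1, the kinase partner of both cyclins, had 38.8, 85.1 and 69.4 CPM with triptolide and 76.3, 88.0 and 90.3 CPM without. Triptolide replicate 1 was the low one, and replicate 2 lay within the untreated range. Its log2 fold change of -0.40 had a 95% interval from -0.92 to 0.13 (edgeR adjusted p = 0.294). CCNA2, the cyclin A2 gene, lay at 80.99, 98.2 and 89.2 CPM with triptolide and 127, 127 and 115 CPM without, with no overlap. It did not pass in edgeR (adjusted p = 0.063) and passed in DESeq2 (adjusted p = 0.0433) and without triptolide replicate 1 and untreated replicate 3 (0.0155), though not with the correction for GC content and length (0.0508). FOXM1, which encodes the transcription factor that drives many genes of the class, had 345, 327 and 298 CPM with triptolide and 316, 290 and 268 CPM without, and the groups overlapped (edgeR adjusted p = 0.549). CKS2, a small subunit of CDK complexes and the most abundant of these genes per kb of exon, averaged 332 ± 43.4 CPM with triptolide and 325 ± 68.6 CPM without (SD, n = 3 libraries each; edgeR adjusted p = 0.931). The phosphatase genes CDC25B and CDC25C and the kinase gene WEE1 also did not pass, and WEE1 stood at 17.6 ± 3.04 CPM with triptolide and 24.0 ± 2.22 CPM without (SD, n = 3 libraries each; edgeR adjusted p = 0.122, and 0.0496 with the correction for GC content and length).

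**Figure D3:**
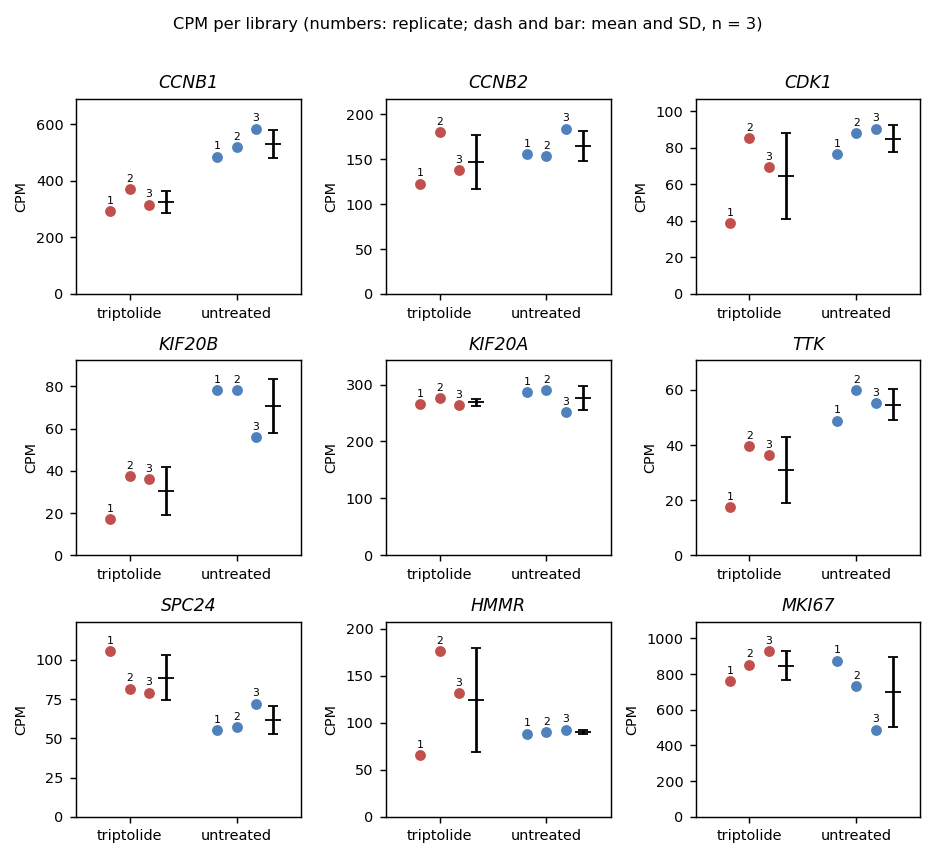
CPM in each library for 9 of the genes, triptolide left and untreated right, with replicate numbers over the points and the mean and SD of 3 libraries beside them. CCNB1, KIF20B and TTK are lower in every triptolide library than in any untreated one, SPC24 is higher, and the other 5 overlap between groups.

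The promoters of CCNB1 and KIF20B are shown beside those of their relatives CCNB2 and KIF20A, whose mRNAs did not pass the test. Each line gives the 250 bases before the annotated start, 5′ to 3′, from RefSeq on GRCh38.p14, with the CCAAT box and the CHR element, searched on either strand, in capitals.
CCNB1 (chr5:69166900-69167149, plus strand): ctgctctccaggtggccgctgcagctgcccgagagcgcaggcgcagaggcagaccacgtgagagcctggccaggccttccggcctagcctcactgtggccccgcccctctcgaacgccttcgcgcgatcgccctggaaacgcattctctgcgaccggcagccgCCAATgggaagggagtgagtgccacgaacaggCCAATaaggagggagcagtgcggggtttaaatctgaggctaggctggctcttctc
CCNB2 (chr15:59104896-59105145, plus strand): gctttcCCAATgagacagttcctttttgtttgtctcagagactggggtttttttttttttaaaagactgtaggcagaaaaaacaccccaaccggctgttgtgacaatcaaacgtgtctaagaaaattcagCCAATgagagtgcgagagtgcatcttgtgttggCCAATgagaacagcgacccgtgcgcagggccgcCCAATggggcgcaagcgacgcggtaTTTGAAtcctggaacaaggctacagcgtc
KIF20B (chr10:89701340-89701589, plus strand): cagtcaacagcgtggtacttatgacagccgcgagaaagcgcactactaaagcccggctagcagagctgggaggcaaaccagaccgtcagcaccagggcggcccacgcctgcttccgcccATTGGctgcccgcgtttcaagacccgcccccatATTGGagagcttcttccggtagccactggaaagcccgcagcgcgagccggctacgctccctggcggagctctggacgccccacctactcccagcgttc
KIF20A (chr5:138178862-138179111, plus strand): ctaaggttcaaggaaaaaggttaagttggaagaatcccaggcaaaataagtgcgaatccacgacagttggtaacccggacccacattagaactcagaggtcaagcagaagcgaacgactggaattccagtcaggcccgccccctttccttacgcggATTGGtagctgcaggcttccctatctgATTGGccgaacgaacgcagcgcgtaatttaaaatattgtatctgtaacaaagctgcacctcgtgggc
The CHR was searched as TTTGAA or TTCGAA. CCNB1 holds 2 CCAAT boxes and 0 CHR forms in the window, and CCNB2 holds 4 and 1. KIF20B and KIF20A hold 2 CCAAT boxes and 0 CHR forms each. Of the 41 members with a promoter in the table, 32 held at least 1 CCAAT box, or 78.0%, against 33.0% of 27305 promoters. A CHR form stood in 22 of the 41, or 53.7%, against 14.6% of all promoters. These are letter matches in a fixed window and not measured sites.

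Among the kinesins, motor proteins that move along microtubules, KIF20B (ENSG00000138182) had 17.2, 37.6 and 36.1 CPM with triptolide, against 78.0, 78.2 and 55.8 CPM in untreated cells. All triptolide libraries lay below all untreated ones, and triptolide replicate 1 and untreated replicate 3 were each the low one of their group. The gene fell 2.32-fold, and its log2 fold change was -1.22 ± 0.27 (SE; edgeR adjusted p = 0.00953). The adjusted p was 0.00708 to 0.0284 with each library left out in turn, and 0.108 with scaling on ribosomal protein genes. KIF20B has the lowest GC content of the 48 genes, at 34.1%. With the correction for GC content and length its log2 fold change was -0.94 (adjusted p = 3.63e-04), and without triptolide replicate 1 and untreated replicate 3 it was -1.08 (adjusted p = 7.42e-04).

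KIF20A encodes a related kinesin that carries the Aurora B complex to the spindle midzone. It had 266, 276 and 264 CPM with triptolide and 286, 290 and 252 CPM without, so the triptolide libraries lay inside the untreated range. Its log2 fold change of -0.04 had a 95% interval from -0.36 to 0.29 (edgeR adjusted p = 0.89). The ratio of KIF20B to KIF20A was 0.0647, 0.136 and 0.137 with triptolide and 0.273, 0.269 and 0.222 without, a log2 difference of -1.25. This pair too was chosen after the values had been seen and has no test, and the genes differ in GC content, at 34.1% for KIF20B and 49.2% for KIF20A. The other 6 kinesins ranged in log2 fold change from -0.33 for KIF23 to 0.17 for KIF14 and KIF18A, and none passed. KIF18A, a motor that dampens chromosome movements, passed on the higher side with the correction for GC content and length (adjusted p = 0.0073). KIF11, the motor that pushes the spindle poles apart, averaged 124 ± 32.2 CPM with triptolide and 131 ± 12.9 CPM without (SD, n = 3 libraries each; edgeR adjusted p = 0.832). KIF2C, a kinesin that takes microtubules apart, averaged 159 ± 8.49 CPM with triptolide and 177 ± 23.8 CPM without (SD, n = 3 libraries each; edgeR adjusted p = 0.562).

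None of the 3 mitotic kinases of the list passed in edgeR. At an unadjusted p under 0.05, 2 lay lower, against 13.8% of all tested genes. PLK1, which acts from mitotic entry to cytokinesis, had 216, 189 and 159 CPM with triptolide and 225, 240 and 272 CPM without, with no overlap. Its edgeR adjusted p was 0.139 with all libraries, 0.0483 without triptolide replicate 1 and 0.0125 with the GC correction. With each other library left out it was 0.184 to 0.433. AURKA, the spindle pole kinase, had a log2 fold change of -0.40 (adjusted p = 0.162, 0.0454 without triptolide replicate 2 and 0.0391 with the correction for GC content and length), and AURKB, the kinase of the chromosomal passenger complex, one of 0.21 (adjusted p = 0.461).

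The 5 checkpoint genes all had log2 fold changes below 0, as did 50.3% of all tested genes. That of BUB1 was -0.0013, and it was above 0 with library totals alone (0.066) and with the GC correction (0.12). None of the 5 passed in edgeR, though 2 lay lower at an unadjusted p under 0.05, against 13.8% of all tested genes. TTK, the kinase MPS1 that starts the checkpoint signal, had 17.4, 39.5 and 36.3 CPM with triptolide, against 48.9, 60.0 and 55.2 CPM without. The groups did not overlap, and triptolide replicate 1 was the lowest library. Its log2 fold change was -0.81 ± 0.26 (SE), with an adjusted p of 0.0519 in edgeR, 0.016 in DESeq2 and 0.0435 in limma-voom. With the correction for GC content and length the log2 fold change was -0.61 (adjusted p = 0.0129), and without triptolide replicate 1 it was -0.51 (0.0405). The adjusted p was 0.0257 without triptolide replicate 2 and 0.0601 without triptolide replicate 3. It was 0.0606, 0.133 and 0.1 without untreated replicates 1, 2 and 3, 0.105 with library totals and 0.341 with ribosomal protein scaling. BUB1, a kinetochore kinase, averaged 175 ± 36.8 CPM with triptolide and 175 ± 6.5 CPM without (SD, n = 3 libraries each), with a 95% interval of the log2 fold change from -0.39 to 0.38. BUB3, its partner, and MAD2L1, which encodes the APC/C inhibitor MAD2, did not overlap between groups and had adjusted p-values of 0.245 and 0.137. BUB1B, the gene of the checkpoint protein BUBR1, had one of 0.318. Without triptolide replicate 1 and untreated replicate 3 the adjusted p was 0.0215 for BUB3 and 0.025 for BUB1B.

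Of the 4 genes that act at anaphase, CDC20 had 527, 455 and 400 CPM with triptolide and 544, 584 and 685 CPM without. The groups came close without overlapping, and the log2 fold change was -0.39 (edgeR adjusted p = 0.14, and 0.00403 with the correction for GC content and length). UBE2C, the ubiquitin-conjugating enzyme of the APC/C, averaged 209 ± 30.5 CPM with triptolide and 263 ± 40.6 CPM without (SD, n = 3 libraries each; edgeR adjusted p = 0.224, and 0.0178 with the correction for GC content and length). PTTG1, which encodes securin, had 184, 384 and 216 CPM with triptolide and 196, 217 and 324 CPM without, and the spread within each group was wide (adjusted p = 0.857). ESPL1, the gene of the protease separase that securin holds back, had an adjusted p of 0.613.

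Subunits of the NDC80 complex, which binds microtubules at the kinetochore, did not lie together. SPC24 was the 1 member of the 48 with higher values in every triptolide library, at 105, 81.7 and 79.2 CPM, against 55.5, 57.2 and 72.1 CPM without. NUF2 was lower in every triptolide library, at 24.9, 55.6 and 48.9 CPM, against 61.6, 63.0 and 67.7 CPM without. Neither passed in edgeR: SPC24 had a log2 fold change of 0.53 (adjusted p = 0.0662) and NUF2 of -0.57 (adjusted p = 0.141). SPC24 passed in DESeq2 (adjusted p = 0.0471), without untreated replicate 3 (0.041), with library totals alone (0.0327) and with the correction for GC content and length (0.00472). It did not pass without untreated replicate 1 or 2 (0.226 and 0.248), or without triptolide replicate 1, 2 or 3 (0.0893, 0.0606 and 0.0996). The GC content of SPC24 is 57.2% and that of NUF2 39.1%. The other subunits NDC80 and SPC25 had log2 fold changes of -0.44 and -0.12, with adjusted p-values of 0.176 and 0.704. CENPF, a large protein of the outer kinetochore, averaged 262 ± 57.1 CPM with triptolide and 285 ± 42.9 CPM without (SD, n = 3 libraries each), and CENPA, the centromeric histone H3 variant, had an adjusted p of 0.248 (edgeR), and of 0.0448 with the correction for GC content and length. CENPE, a kinetochore motor, had one of 0.805.

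Of the proteins that bind spindle microtubules, none passed. TPX2, which activates Aurora A on the spindle, stood at 304, 491 and 396 CPM with triptolide and 437, 448 and 425 CPM without (edgeR adjusted p = 0.655). CKAP5, a protein that speeds microtubule growth, averaged 365 ± 33.3 CPM with triptolide and 357 ± 61 CPM without (SD, n = 3 libraries each; edgeR adjusted p = 0.921). DLGAP5 and CKAP2, which stabilise spindle microtubules, each had a log2 fold change of -0.25 (adjusted p of 0.481 and 0.445). HMMR, the hyaluronan receptor that also organises spindle poles, had 65.8, 176 and 132 CPM with triptolide and 88.3, 89.6 and 92.6 CPM without, so that 2 triptolide libraries lay above all untreated ones and replicate 1 lay below them. Its edgeR adjusted p was 0.274 with all libraries, 0.00992 without triptolide replicate 1 and 0.0106 with the correction for GC content and length, on the higher side. PRC1 and NUSAP1, which bundle microtubules, had only 48 to 97 and 13 to 27 counts in triptolide libraries and 31 to 63 and 11 to 13 counts in untreated ones. In GENCODE 29, 58.4% of the exon bases of PRC1 and 62.2% of those of NUSAP1 are shared with another annotated gene, and for both a gene on the same strand is among those that overlap. The gene that shares exons with PRC1 on its strand, ENSG00000284946, had 93 to 171 counts with triptolide and 138 to 158 counts without. The counts of PRC1 and NUSAP1 are therefore uncertain as levels of these mRNAs, and how the authors' counting treated shared reads is not given in the sources used here.

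ANLN and ECT2, which build the contractile ring, and TOP2A and MKI67, which shape and coat mitotic chromosomes, did not pass. MKI67, the gene of the proliferation marker Ki-67, had 762, 853 and 927 CPM with triptolide and 876, 735 and 489 CPM without. Untreated replicate 3 was the low one, and MKI67 is the longest of the 48 genes, with 12807 exon bases. Its log2 fold change of 0.28 had a 95% interval from -0.18 to 0.73 (edgeR adjusted p = 0.403). TOP2A, the topoisomerase that untangles chromosomes, had 286, 455 and 473 CPM with triptolide and 548, 559 and 425 CPM without, and its log2 fold change was -0.33 (adjusted p = 0.303). ANLN averaged 285 ± 62 CPM with triptolide and 279 ± 50.7 CPM without, and ECT2 averaged 164 ± 53 CPM with triptolide and 215 ± 25.1 CPM without (SD, n = 3 libraries each).

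Summed over the 48 genes, the level was 7516, 9284 and 8422 CPM in the triptolide libraries and 9214, 9286 and 9080 CPM in the untreated ones. Triptolide replicate 2 reached the untreated range and replicate 1 was the lowest. Per kb of exon in GENCODE 29, the levels in untreated cells ran from 0.24 CPM per kb for NUSAP1 to 530 for CKS2, 297 for CDC20 and 207 for CCNB1. In 12 of the 48 genes, or 25.0%, all triptolide libraries lay below all untreated ones, against 16.9% of all tested genes. In 1, or 2.08%, they all lay above, against 19.8% of all tested genes. The 12 were CCNA2, CCNB1, WEE1, PLK1, BUB3, MAD2L1, TTK, CDC20, NDC80, NUF2, KIF20B and KIF23.

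The number of genes called moved with the handling of GC content and of the libraries that stood apart. With a GC correction, 6 fell (CCNA2, CCNB1, CDC20, KIF20B, PLK1 and TTK) and 3 rose (HMMR, KIF18A and SPC24), where 12.3% of all genes fell and 14.0% rose. With GC content and length corrected, a step added after seeing the data, 9 fell and 3 rose, or 18.8% and 6.25% of the 48, against 14.8% and 15.5% of all genes. The 9 were AURKA, CCNB1, CDC20, CENPA, KIF20B, PLK1, TTK, UBE2C and WEE1. Without triptolide replicate 1 and untreated replicate 3, also added after seeing the data, 8 fell (BUB1B, BUB3, CCNA2, CCNB1, CDC20, KIF20B, PLK1 and TTK) and 2 rose (HMMR and SPC24), against 11.8% and 12.5% of all genes. CCNB1 and KIF20B were among the fallen genes in all 3. The count that fell was 1 without triptolide replicate 3 and 1 without untreated replicate 2, where 2.96% and 2.56% of all genes fell. It was 4 without triptolide replicate 1 and 4 without triptolide replicate 2, against 6.58% and 5.77% of all genes. It was 2 without untreated replicate 1 or 3, against 3.34% and 4.53%. HMMR rose without triptolide replicate 1 (9.59% of all genes rose) and SPC24 without untreated replicate 3 (7.89%), while 0 members rose without triptolide replicate 2 or 3 (10.2% and 7.25%) or untreated replicate 1 or 2 (7.17% and 5.99%). Other scalings and filters called 2 members lower with RLE factors (5.99% of all genes), with library totals (3.91%) and at a mean of at least 5 CPM (3.27%), and 4 with no filter (3.32%). On the higher side they called SPC24 with library totals (11.0%), and 0 members with RLE factors (9.91%), the 5 CPM mean (5.68%) or no filter (5.92%). With a test against a fold of 1.5 (glmTreat), 0 fell and 0 rose, where 0.888% of all genes fell. With scaling on ribosomal protein genes 0 fell and 0 rose, against 0.842% and 7.73% of all genes. Under that scaling the median over all genes was 0.17 on the log2 scale and that of the 48 was 0.04, a difference of -0.13, as with TMM. The ribosomal protein genes were themselves uneven between libraries. With TMM their sum was 83852, 81827 and 64826 CPM with triptolide and 72784, 79528 and 111803 CPM without. Untreated replicate 3, which was higher in short genes, had the highest sum, and triptolide replicate 3 had the lowest. The part of gene length in these sums was not tested. Of these 79 genes, 75 had a log2 fold change below 0.

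**Figure D4:**
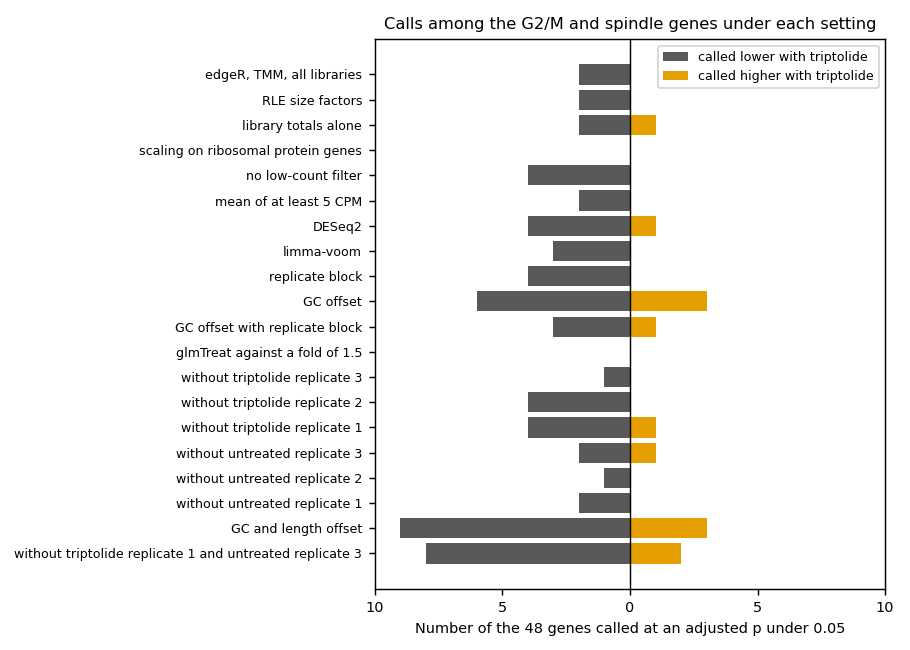
Number of the 48 genes called lower (left of 0) and higher (right of 0) with triptolide at an adjusted p under 0.05, under the edgeR fit and each alternative. Lower calls run from 0 to 9 and higher calls from 0 to 3.

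Other genes of mitosis were taken from lists of 136 genes, of which 135 were tested, and 9 fell and 1 rose. Over all tested genes 5.82% fell and 10.0% rose, so this is close to the background for falls and under it for rises. At an unadjusted p under 0.05 in edgeR, 26 of the 135 lay lower and 6 higher, against 13.8% and 17.1% of all tested genes. The log2 fold change was below 0 in 92 of the 135, against 50.3% of all tested genes, and its median was -0.16. NCAPH, the kleisin subunit of condensin I, had 31.3, 35.5 and 34.7 CPM with triptolide, against 86.5, 95.6 and 85.6 CPM without. It fell 2.64-fold, with an edgeR adjusted p of 1.78e-04, and of 4.57e-04 to 0.00141 with each library left out. KNSTRN, which encodes a protein of spindle and kinetochores, had 54.5, 60.6 and 56.9 CPM with triptolide and 104, 101 and 114 CPM without. It fell 1.85-fold (adjusted p = 0.00254), and its adjusted p was 0.0991 with scaling on ribosomal protein genes. The groups of both genes lay far apart in all libraries.

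PLK2 and PLK3, relatives of PLK1 that respond to stress, lay in opposite directions. PLK2 fell to 514 ± 10.3 CPM with triptolide, against 852 ± 59.8 CPM without, with an edgeR adjusted p of 0.00739 (SD, n = 3 libraries each). PLK3 had 35.8, 27.5 and 23.8 CPM with triptolide, against 13.3, 14.3 and 15.3 CPM without, and rose 2.02-fold (edgeR adjusted p = 0.00418). With scaling on ribosomal protein genes PLK2 did not pass (adjusted p = 0.173). The other 6 that fell were the APC/C subunits CDC16 and CDC27, the kinetochore proteins NSL1 and ZWILCH, the cohesin subunit SMC3 and CCNB1IP1, a ubiquitin ligase named for binding cyclin B1. Their folds lay between 1.49 for CDC16 and 1.81 for ZWILCH. Each of them lost its call without untreated replicate 2, with adjusted p-values of 0.134 for CDC16, 0.101 for CDC27, 0.0699 for NSL1, 0.0746 for ZWILCH, 0.0941 for SMC3 and 0.0884 for CCNB1IP1. CDC16, SMC3, NSL1 and CCNB1IP1 also lost it without triptolide replicate 3 (adjusted p of 0.115, 0.0507, 0.0658 and 0.101), and CDC16, CDC27 and CCNB1IP1 without triptolide replicate 1 (0.0518, 0.0554 and 0.0633). CDC16, CDC27 and SMC3 lost it without untreated replicate 1 (0.0717, 0.0743 and 0.0658), and CDC16, NSL1 and CCNB1IP1 without untreated replicate 3 (0.087, 0.0602 and 0.0937). Without triptolide replicate 3 the count that fell was 5 and without untreated replicate 1 it was 6, where 2.96% and 3.34% of all genes fell. With scaling on ribosomal protein genes only NCAPH fell, where 0.842% of all genes did. With GC content and length corrected, 28 fell and 8 rose, where 14.8% of all genes fell and 15.5% rose, and NCAPH, KNSTRN and PLK2 were among the 28.

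Regulators of the class were looked at in the same way. MYBL2, the gene of B-MYB, had 652, 548 and 469 CPM with triptolide and 541, 569 and 669 CPM without (edgeR adjusted p = 0.76), and 0 of the 16 genes of the DREAM, MuvB and B-MYB list passed. Over all tested genes 5.82% fell and 10.0% rose. In that list 0 were higher and 2 lower at an unadjusted p under 0.05, against 17.1% and 13.8% of all tested genes. DESeq2 called E2F4 lower, as did the GC correction, with and without a replicate block, and the correction for GC content and length. E2F4 also fell without triptolide replicate 1, and without it and untreated replicate 3. NFYA fell with the GC correction, without untreated replicate 3, and without both of those libraries, where RBL1 also fell. BIRC5, the survivin subunit of the chromosomal passenger complex, averaged 280 ± 26.3 CPM with triptolide and 270 ± 28.0 CPM without (adjusted p = 0.855). CDKN1A, the gene of the CDK inhibitor p21, rose to 26.5, 24.5 and 23.4 CPM with triptolide, against 9.25, 8.26 and 9.75 CPM without, with no overlap. The CDK inhibitor genes CDKN1C and CDKN2D rose 4.47-fold and 2.5-fold (edgeR adjusted p = 4.02e-04 and 0.00394).

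DNA replication and S phase genes, the class transcribed earlier in the cycle, gave 4 fallen and 1 risen of 55 tested, where 5.82% of all genes fell and 10.0% rose, with a median log2 fold change of -0.11. ORC2, a subunit of the origin recognition complex, fell 1.95-fold and RFC4, a subunit of the clamp loader, 1.71-fold. GINS1 and TIMELESS fell 1.62-fold and 1.61-fold, and neither passed without untreated replicate 2 (adjusted p of 0.0995 and 0.0622) or without untreated replicate 1 (0.0866 and 0.0691). POLE, the catalytic subunit of DNA polymerase epsilon, rose 1.57-fold. It did not pass without untreated replicate 2 or 3 (adjusted p of 0.116 and 0.0979) or without triptolide replicate 1 or 3 (0.08 and 0.0946). With scaling on ribosomal protein genes none of the 5 passed. No test compared this class with the mitotic genes.

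Of 27 listed near copies and close relatives of the 48 genes, 17 were in the table and 7 were tested. In edgeR CDC20P1 fell while 0 rose, where 5.82% of all tested genes fell and 10.0% rose. At an unadjusted p under 0.05, 2 of the 7 lay lower and 1 higher, against 13.8% and 17.1% of all tested genes. Most of the counts of the list lay in the relatives TOP2B and CDK2, which did not pass (adjusted p of 0.0755 and 0.419). KIF4B, an intronless copy of KIF4A, stood at 1.00 to 1.40 CPM with triptolide and 0.88 to 2.02 CPM without, against 110 to 146 and 132 to 143 CPM for KIF4A. CDC20P1, a pseudogene of CDC20, had 4.79, 2.93 and 3.08 CPM with triptolide and 6.62, 4.99 and 7.54 CPM without (edgeR adjusted p = 0.0419), and its call was not recomputed with libraries left out. The counts of KIF4A and KIF4B, and of CDC20 and CDC20P1, are uncertain where reads fit both.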

How the data were processed

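Poly(A)-selected mRNA of 6 MIA PaCa-2 libraries was sequenced as paired reads, per the labels' protocols. The authors deposited 1 table of raw read counts, in whole numbers by Ensembl gene ID. The submitters' processing notes name HISAT2 and featureCounts without versions. Genome build and annotation were not given in the sources used here, nor was the strand setting or the handling of shared reads. Whether the counts separate a gene from its antisense partner is therefore unknown.

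Symbols were matched by gene ID (35639 of 35716). Exon length, overlaps and the GC content of transcripts came from GENCODE 29, with a GC value for 99.2% of tested genes. Genes were filtered by filterByExpr, TMM factors were used, and the test was the quasi-likelihood test of edgeR 4.0.16 in R 4.3.3, with a single term for treatment and p-values adjusted by Benjamini-Hochberg over 15202 genes. CPM values use TMM-scaled library sizes. Standard errors came from the fold change and its F statistic. Total counts of 16302961 to 23262713 limit the precision of low genes. No 2 libraries agreed within sampling noise (chi-square over degrees of freedom of 4.96 to 78.4).

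The members, lists and tests were chosen with earlier results of these data known. Named genes are the members past the threshold, the 2 most abundant and the most changed of each role group, those past the threshold in the related lists (at most 5 per direction) and FOXM1, MYBL2, BIRC5, CDKN1A, CCNB1 and CDK1. Other members were named after their values were seen. Alternatives were RLE factors, library totals, ribosomal protein scaling, no filter, a 5 CPM minimum mean, DESeq2 1.42.0, limma-voom 3.58.1, glmTreat against a fold of 1.5, a replicate block, a lowess GC offset, and each library left out. Scaled counts give each gene's share of its library, which leaves the amount of mRNA in a cell unmeasured. The result of 1 further list is not reported here.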

Additional observations from a re-analysis of the deposited data

How the results depend on the processing

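CCNB1 and KIF20B were lower with triptolide in each of the 19 alternatives, and KIF20B passed in all but ribosomal protein scaling and glmTreat. Of the 48 genes, 0 rose and 2 fell in the edgeR fit. The number that fell was 0 with ribosomal protein scaling and with glmTreat, 4 with no low-count filter and with DESeq2, 6 with the GC offset, 9 with the GC and length offset and 8 without both libraries that stood apart. The number that rose was 1 with library totals alone and with DESeq2, 3 with the GC offset, 3 with the GC and length offset and 2 without both of those libraries. With 1 library left out, 1 to 4 fell and 0 to 1 rose. Among the related mitotic genes, 9 fell and 1 rose, where 5.82% of all tested genes fell and 10.0% rose. The number that fell was 4 with library totals, 1 with ribosomal protein scaling and with glmTreat, 3 under the 5 CPM minimum, 23 with the GC offset, 28 with GC and length, 22 without both libraries, and 3 to 13 with 1 library left out. The share of all genes that fell moved too. It was 3.91% with library totals, 0.842% with ribosomal protein scaling, 0.888% with glmTreat and 3.27% under the 5 CPM minimum. With the GC offset it was 12.3%, with GC and length 14.8%, without both libraries 11.8%, and with 1 library left out 2.56% to 6.58%. The number of related genes that rose was 4, 2, 7, 0, 8 and 9 with library totals, the 5 CPM minimum, the GC offset, glmTreat, GC and length, and without both libraries, and 1 to 2 with 1 left out. Of all genes, 11.0% rose with library totals, 5.68% under the 5 CPM minimum, 14.0% with the GC offset and 15.5% with GC and length. Without both libraries 12.5% of all genes rose, and with 1 library left out 5.99% to 10.2% did. The median log2 fold change of the 48 was -0.13, 0.0398 with ribosomal protein scaling, and -0.27 to -0.02 with 1 library left out. glmTreat asks for a larger change by construction. The cause of the other differences was not tested.

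No pairing by replicate number was seen: deviations of same-numbered libraries from their group means correlated at 0.03, -0.04 and -0.44. With 3 libraries in each group, and triptolide replicate 1 and untreated replicate 3 standing apart, these correlations cannot exclude a pairing. With the replicate block 4 of the 48 fell (CCNB1, KIF20B, NUF2 and TTK) and 0 rose, against 5.63% and 10.0% of all genes, and with the block and the GC offset 3 fell and 1 rose, against 7.36% and 10.1%. No library correlated best with the library of its own number in the other group.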
